A study of Rattus norvegicus with 10 samples.

Results

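The enzymes that build purine nucleotides and recover purine bases were followed in kidney cortex RNA of the Dahl salt-sensitive rat (SS/JrHsdMcwi), an inbred strain that becomes hypertensive when fed much salt. The 10 genes were chosen by name from the pathway, out of 32545 genes in the deposited table: Prps1, Ppat, Gart, Pfas, Paics, Adsl and Atic, which make inosine monophosphate (IMP), and Hprt1, Aprt and Adk, which salvage bases and nucleosides. The tested animals ate 4% NaCl with 2% oxonic acid for 3 weeks (5 libraries), and the others ate 4% NaCl without it, labelled vehicle (5 libraries). Oxonic acid blocks uricase, by which rodents break uric acid down. Both groups came from male and female rats labelled wild type that first ate 0.4% NaCl, carried telemeters implanted at 8 to 9 weeks of age and were recorded for 4 days before the switch. The labels give neither the sex nor the animal behind a library, so a p-value reflects only how these samples varied, partly perhaps for technical reasons. Each library held the whole cortex, in which fewer cells of a type and less RNA per cell cannot be told apart.

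Purines reach the nucleotide pool by building the ring from small molecules or by salvage of ready-made bases. Both routes use phosphoribosyl pyrophosphate (PRPP), which Prps1 makes from ribose phosphate. Ppat commits PRPP to new synthesis, Gart, Pfas, Paics and Adsl extend the ring, and Atic closes it into IMP. Hprt1 returns hypoxanthine and guanine to the pool, Aprt returns adenine and Adk phosphorylates adenosine, so what salvage does not recover is open to oxidation to uric acid. In humans, loss of HPRT1 or excess activity of PRPS1 raises uric acid, and loss of APRT gives kidney stones of an oxidised form of adenine.

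No purine enzyme passed the test for a difference between the diets. Of the 10 genes, all 10 had a mean of at least 0.5 FPKM (fragments per kilobase of gene and per mega-fragment of library) and 0 had an adjusted p under 0.05 in limma's test on log2(FPKM + 0.5), as did 0 of the 14508 genes tested (0%). At an unadjusted p under 0.05 there was 1 of the 10, Aprt, beside 9.49% of all genes tested (4.32% higher and 5.17% lower). Voom, limma's variant for reads, called 0 genes as well. The groups overlapped in all 10, whereas they did not overlap in 1.91% of all genes tested. The median log2 difference of the 10 was 0.0088, with 6 higher and 4 lower, and that of all genes tested was 0.0053, with 48.2% lower.

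Libraries held 14.5 to 18.5 M reads in genes (M, mega), and the 9 genes other than Hprt1 had 278 to 3890 reads in each library. Markers of the proximal tubule, the main segment of the cortex, were present. They summed to 3427 to 4407 FPKM in oxonic acid libraries, against 3208 to 4356 FPKM in vehicle libraries. Of the 10, 8 were higher and 2 lower with oxonic acid. Lrp2, with the largest log2 difference of them (0.15), averaged 269 ± 22.5 FPKM in oxonic acid and 243 ± 28.9 FPKM in vehicle libraries (SD, n = 5 each). The inner medullary urea transporter Slc14a2, whose groups overlapped, reached 15.98 FPKM in oxonic acid library 3 and at most 0.505 FPKM in any vehicle library. Vehicle library 4 stood apart on the first principal component, at 39.8 against -13.7 to 15.5 for the other 9. Sample numbers fall into 3 runs that the labels do not call batches: run A had 3 oxonic acid but 0 vehicle libraries, run B had 1 oxonic acid and 3 vehicle libraries, and run C had 1 oxonic acid and 2 vehicle libraries.

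**Figure D1:**
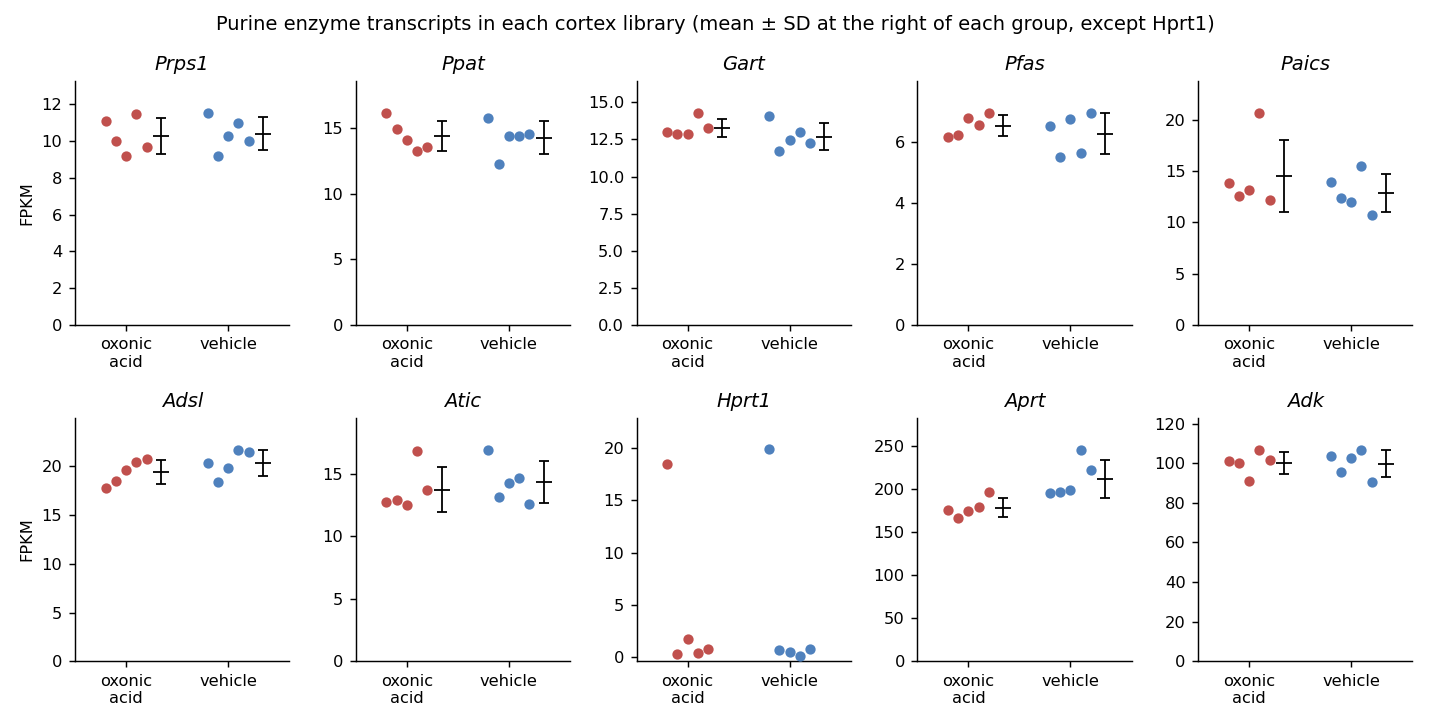
FPKM (vertical axes, linear) of the 10 purine enzymes, a panel a gene; each point is a library, with the 5 oxonic acid libraries left of the 5 vehicle libraries and mean ± SD beside each group except for Hprt1. Hprt1 is near 20 FPKM in oxonic acid library 1 (18.5) and vehicle library 1 (19.96) and at most 1.68 in the other 8, and the Aprt groups touch where oxonic acid library 5 (196 FPKM) meets vehicle library 1 (195 FPKM).

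Among the genes of the synthesis route, Ppat and Paics share their 5′ ends. Ppat (ENSRNOG00000002128, chromosome 14, 33580541 to 33614919, plus strand) and Paics (ENSRNOG00000002101, chromosome 14, 33563886 to 33580566, minus strand) lie head to head and overlap by 26 bases in the deposited table, in coordinates of an unnamed build. RefSeq windows on GRCr8, from 250 bases before to 50 bases after each start, show the same 26 bases of overlap at chr14:31570010-31570035. The windows are shown because a shared start invites the question whether the genes move together; capitals mark the bases transcribed from both genes.
Ppat, chr14:31569760-31570059, plus strand: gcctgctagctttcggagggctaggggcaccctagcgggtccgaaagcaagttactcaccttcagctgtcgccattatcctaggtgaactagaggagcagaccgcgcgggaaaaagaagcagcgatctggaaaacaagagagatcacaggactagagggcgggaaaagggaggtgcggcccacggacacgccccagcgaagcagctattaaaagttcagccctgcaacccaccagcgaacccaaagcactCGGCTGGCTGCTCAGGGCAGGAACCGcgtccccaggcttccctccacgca
Paics, chr14:31569986-31570285, minus strand: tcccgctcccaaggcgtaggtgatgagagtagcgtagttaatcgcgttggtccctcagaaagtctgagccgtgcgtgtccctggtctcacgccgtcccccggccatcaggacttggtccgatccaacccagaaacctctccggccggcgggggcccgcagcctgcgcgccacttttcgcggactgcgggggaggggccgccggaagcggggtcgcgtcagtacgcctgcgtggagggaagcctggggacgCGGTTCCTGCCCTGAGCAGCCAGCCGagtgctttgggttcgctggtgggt

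All 10 enzymes had a RefSeq window, 53.3% to 68.0% G or C, beside a median of 51.7% over all 33469 windows. The GC box GGGCGG (either strand) stood in 9 of the 10, beside 33.1% of all windows, and was missing from that of Paics. CCAAT (either strand) stood in 4 of the 10, beside 37.5% of all windows. TATAAA (either strand) stood in 1, that of Aprt, beside 14.2% of all windows. The E-box CACGTG, which reads the same on both strands, stood in the window of Atic, 2 times, and in no other, beside 6.42% of all windows. Matches are letters in a window, not measured binding.

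Prps1, which supplies PRPP, measured 11.1, 10.0, 9.17, 11.5 and 9.68 FPKM in oxonic acid libraries 1 to 5, against 11.5, 9.20, 10.3, 10.97 and 9.98 FPKM in vehicle libraries 1 to 5. The groups lay within the same range, with a log2 difference of -0.015 (95% interval -0.19 to 0.16, limma adjusted p = 0.965). Its close relative Prps2 averaged 15.3 ± 1.90 FPKM in oxonic acid libraries, against 14.3 ± 2.11 FPKM in vehicle libraries (SD, n = 5 each), and reads of such similar genes may be divided between them by the counting.

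Ppat, the committing step, measured 16.2, 14.9, 14.1, 13.3 and 13.6 FPKM in oxonic acid libraries 1 to 5, against 15.8, 12.3, 14.4, 14.4 and 14.5 FPKM in vehicle libraries 1 to 5. Library 1 was the highest of its group in both diets, and the log2 difference was 0.013 (95% interval -0.15 to 0.18, limma adjusted p = 0.968). A fold outside 0.899 to 1.13 lies beyond that interval.

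Gart, whose protein carries several of the ring-building steps, measured 13.0, 12.8, 12.9, 14.3 and 13.3 FPKM in oxonic acid libraries 1 to 5, against 14.1, 11.7, 12.5, 12.97 and 12.2 FPKM in vehicle libraries 1 to 5. All 5 oxonic acid libraries were above the vehicle median of 12.5 FPKM, yet vehicle library 1 was above 4 of them, and the log2 difference was 0.063 (95% interval -0.070 to 0.20, limma adjusted p = 0.750). Pfas, which adds nitrogen from glutamine, measured 6.14 to 6.94 FPKM (median 6.54) with oxonic acid and 5.49 to 6.93 FPKM (median 6.52) with vehicle. Its lowest values were in vehicle libraries 2 and 4, and the log2 difference was 0.059 (95% interval -0.11 to 0.23, limma adjusted p = 0.823).

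Paics, which carboxylates the ring and joins aspartate to it, measured 13.9, 12.6, 13.2, 20.7 and 12.2 FPKM in oxonic acid libraries 1 to 5, against 13.9, 12.3, 11.9, 15.5 and 10.7 FPKM in vehicle libraries 1 to 5. Oxonic acid library 4 was far above the other 9. The log2 difference of 0.15 (95% interval -0.16 to 0.47, limma adjusted p = 0.745) was 0.020 without that library. Its partner Ppat was lowest of its group, at 13.3 FPKM, in the same library.

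Adsl, which cleaves fumarate off in this route and again on the way to AMP, measured 17.8, 18.5, 19.6, 20.4 and 20.7 FPKM in oxonic acid libraries 1 to 5, against 20.4, 18.4, 19.8, 21.7 and 21.5 FPKM in vehicle libraries 1 to 5. Vehicle libraries 4 and 5 were above every oxonic acid library, and the log2 difference was -0.068 (95% interval -0.21 to 0.070, limma adjusted p = 0.739). In the deposited table Adsl overlaps a predicted gene on the same strand over 4394 bases, so its value is uncertain. Atic, which closes the ring, measured 12.7, 12.9, 12.5, 16.8 and 13.7 FPKM in oxonic acid libraries 1 to 5, against 16.9, 13.2, 14.3, 14.7 and 12.6 FPKM in vehicle libraries 1 to 5. Oxonic acid library 4 and vehicle library 1, both of run B, were the highest, and the log2 difference was -0.060 (95% interval -0.28 to 0.16, limma adjusted p = 0.861). With the runs as a block it was 0.11.

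Aprt, which salvages adenine, was the enzyme with the smallest unadjusted p. It measured 176, 167, 174, 179 and 196 FPKM in oxonic acid libraries 1 to 5, against 195, 197, 198, 246 and 222 FPKM in vehicle libraries 1 to 5. All 5 oxonic acid libraries were below the vehicle median, but oxonic acid library 5 was just above vehicle library 1, so the groups overlapped. The means were 178 ± 10.8 FPKM in oxonic acid libraries, against 212 ± 22.1 FPKM in vehicle libraries (SD, n = 5 each), a log2 difference of -0.24. Its 95% interval was -0.40 to -0.081, and it did not pass in limma's test across all genes (unadjusted p = 0.0070, adjusted p = 0.388). By unadjusted p it ranked 261 of the 14508 genes tested. The difference was -0.19 without vehicle library 4, the highest, and its adjusted p ran from 0.273 to 0.718 over 22 other settings. Within runs B and C, each with 1 oxonic acid library, it was -0.14 and -0.25.

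Marker levels of other cell types stood as follows in the same libraries, with no marker past the threshold and 48.2% of all genes tested lower. Macrophage and monocyte markers summed to 364 to 462 FPKM in oxonic acid libraries, against 419 to 576 FPKM in vehicle libraries, with 11 of 11 tested members lower; Cd163 was listed at 0 in vehicle library 4. T and NK cell markers summed to 28.3 to 30.1 FPKM in oxonic acid libraries, against 28.6 to 44.1 FPKM in vehicle libraries, with 7 of 8 tested members lower. Cd4, the largest part of that sum, measured 17.1 to 19.8 FPKM in oxonic acid and 15.2 to 26.5 FPKM in vehicle libraries. Tubular injury markers summed to 924 to 1759 FPKM in oxonic acid libraries, against 1586 to 3753 FPKM in vehicle libraries, with 8 of 9 tested members lower; Krt20 was listed at 0 in oxonic acid libraries 2 and 3 and in vehicle library 4. These immune and injury lists thus lay mostly lower with oxonic acid. The lists of nephron segments lay mostly higher, that of the proximal tubule (8 of 10 tested members higher) among them. Collecting duct markers summed to 419 to 527 FPKM in oxonic acid libraries, against 308 to 444 FPKM in vehicle libraries, with 7 of 8 tested members higher. Inner medulla and thin limb markers summed to 696 to 980 FPKM in oxonic acid libraries, against 538 to 758 FPKM in vehicle libraries, with 7 of 7 tested members higher, and Slc14a2 was listed at 0 in oxonic acid libraries 2, 4 and 5 and in vehicle libraries 1 and 3. Thick limb and distal tubule markers were higher in 4 of 4 tested members, endothelial markers in 6 of 7 and podocyte markers in 5 of 6. Fibroblast and smooth muscle markers were lower in 5 of 8. Lower at an unadjusted p under 0.05 were 5 of 11 macrophage, 3 of 8 T and NK cell and 6 of 9 injury markers. So were 2 of 8 fibroblast and smooth muscle markers. Higher at that p were 4 of 8 collecting duct, 2 of 7 inner medulla and 2 of 7 endothelial markers. The proximal tubule, podocyte and thick limb lists had 0 at that p. Of all genes tested, 5.17% were lower and 4.32% higher at that p. The part of these markers in the Aprt value was not tested. The window upstream of Aprt (RefSeq GRCr8) is printed because Aprt had the smallest p of the 10; capitals mark its 4 GC boxes.
Aprt, chr19:67536978-67537277, minus strand: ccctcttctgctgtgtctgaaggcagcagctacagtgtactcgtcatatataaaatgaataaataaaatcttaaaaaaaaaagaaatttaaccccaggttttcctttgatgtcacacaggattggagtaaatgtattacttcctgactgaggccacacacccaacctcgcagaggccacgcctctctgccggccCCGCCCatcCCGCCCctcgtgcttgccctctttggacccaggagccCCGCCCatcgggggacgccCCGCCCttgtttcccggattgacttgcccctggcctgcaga

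Adk, which returns adenosine to AMP, measured 101, 99.9, 91.2, 107 and 102 FPKM in oxonic acid libraries 1 to 5, against 103, 95.4, 103, 107 and 90.7 FPKM in vehicle libraries 1 to 5. The ranges nearly coincided, with a log2 difference of 0.0045 (95% interval -0.13 to 0.13, limma adjusted p = 0.989).

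**Figure D2:**
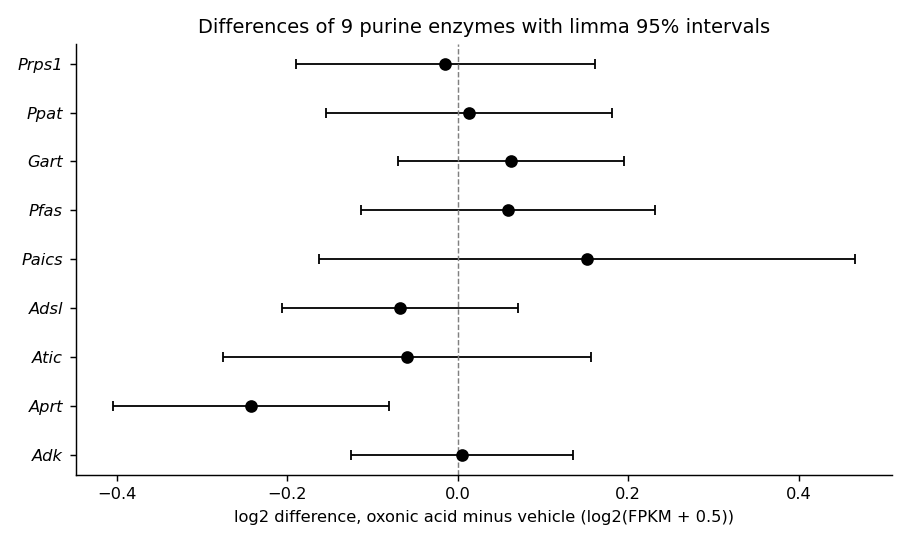
Log2 difference, oxonic acid minus vehicle, on log2(FPKM + 0.5) (horizontal axis) of the 9 purine enzymes other than Hprt1; points are limma estimates over 5 and 5 libraries and bars are 95% intervals. The Aprt interval, -0.40 to -0.081, is the only 1 of the 9 that leaves out 0, before any adjustment for the 14508 genes tested.

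Hprt1, which salvages hypoxanthine and guanine, could not be compared, because its values split within both groups. The row with the higher mean (ENSRNOG00000048561, chromosome X, 158197149 to 158228749) measured 18.5, 0.210, 1.68, 0.335 and 0.735 FPKM in oxonic acid libraries 1 to 5, against 19.96, 0.642, 0.470, 0.0990 and 0.754 FPKM in vehicle libraries 1 to 5. Oxonic acid library 1 had 193 reads and vehicle library 1 had 218, and the other 8 had 1 to 18. The log2 difference of 0.17 had a 95% interval of -2.18 to 2.51 (limma adjusted p = 0.972). The table holds a second Hprt1 row (ENSRNOG00000031367), 426 kb away on the same chromosome, at 0 to 0.355 FPKM in all 10 libraries, whereas RefSeq GRCr8 lists 1 gene and 3 pseudogenes of that name.

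Around both Hprt1 rows the same neighbours appear, among them Phf6 and Plac1, each in 2 rows. The Phf6 row beside the higher Hprt1 row (ENSRNOG00000048650) reached 1.83 and 2.09 FPKM in vehicle libraries 1 and 3 and at most 0.161 FPKM in the other 8. Reads that match more than 1 copy may be dropped or divided by the counting, and their handling by the authors is not stated in the labels, so the Hprt1 levels are uncertain. No other protein-coding row was above 1 FPKM and over 3 times higher in both libraries 1 than in each of the other 8. The part of the second copy in these values was not tested.

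Over all 10 libraries the levels per length of the 9 enzymes other than Hprt1 fell in a wide order. Hprt1 was left out, as its values, 0.0990 to 19.96 FPKM, split within both groups and span the range of Pfas. Aprt was first at 195 FPKM and Adk second at 99.98 FPKM, and the IMP route lay well below. Adsl averaged 19.9 FPKM, Ppat 14.4, Atic 14.0, Paics 13.7, Gart 12.98, Prps1 10.3 and Pfas 6.39 FPKM. The ranges of Ppat, Atic, Paics and Gart over libraries overlapped one another, whereas the ranges of Aprt, Adk, Adsl, Prps1 and Pfas were clear of the genes next to them in that order. The range of Paics, 10.7 to 20.7 FPKM, still overlapped those of Adsl and Prps1, which are not next to it. These levels rest on the gene lengths in the table, which are short for Aprt, at 543 bases, and Hprt1, at 657 bases, and long for Pfas, at 7023 bases.

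Some of the enzymes varied together from library to library. Pearson correlations of log2(FPKM + 0.5), each library centred on its group mean, were computed for 36 pairs of the 9 enzymes other than Hprt1, over 10 libraries, with exact permutation within groups (14400 arrangements). Gart and Atic had the highest r, 0.92 (rho = 0.90; exact p = 0.0018 and 0.0025; adjusted p = 0.0650 for r and 0.0450 for rho). It was 0.99 within oxonic acid and 0.93 within vehicle libraries, and 0.74 without the 2 libraries farthest from the median of Gart. Adk and Atic had the highest rho, 0.94, with r = 0.76 (exact p = 0.00056 for rho and 0.0294 for r; adjusted p = 0.0200 for rho and 0.126 for r), and r was 0.71 without the 2 libraries farthest from the median of Adk. The shared start of Ppat and Paics went with no such relation over the 10 libraries. Their r was -0.13 and rho -0.079 (exact p = 0.722 and 0.833, adjusted p = 0.962 for both). Their r was -0.41 within oxonic acid and 0.23 within vehicle libraries, and -0.24 without the 2 libraries farthest from the median of Ppat. In oxonic acid library 4 Paics was highest and Ppat lowest of its group. Of the 36 pairs, 10 had an exact p under 0.05 for r and 0 passed the adjustment, whereas for rho 10 did and 2 passed, Adk with Atic and Gart with Atic, and all pairs share library depth and scaling. The share among pairs of other genes is not given here, so these counts do not show a trait particular to the purine enzymes. Runs A, B and C hold 3 or 4 libraries, too few for values within a run.

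The windows upstream of Gart and Atic (RefSeq GRCr8) are printed as the pair with the highest Pearson r. Capitals mark the 2 GC boxes in Gart and the 2 E-boxes in Atic. The window of Atic also holds 4 GC boxes, left in lower case, and neither motif was examined beyond its letters.
Gart, chr11:44377037-44377336, minus strand: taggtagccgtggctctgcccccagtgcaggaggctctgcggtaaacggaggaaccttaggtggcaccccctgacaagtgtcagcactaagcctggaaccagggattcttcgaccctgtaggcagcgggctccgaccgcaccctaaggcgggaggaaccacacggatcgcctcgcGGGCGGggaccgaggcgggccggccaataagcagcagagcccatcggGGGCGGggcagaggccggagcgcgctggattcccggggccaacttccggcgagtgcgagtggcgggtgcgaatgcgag
Atic, chr9:80614061-80614360, plus strand: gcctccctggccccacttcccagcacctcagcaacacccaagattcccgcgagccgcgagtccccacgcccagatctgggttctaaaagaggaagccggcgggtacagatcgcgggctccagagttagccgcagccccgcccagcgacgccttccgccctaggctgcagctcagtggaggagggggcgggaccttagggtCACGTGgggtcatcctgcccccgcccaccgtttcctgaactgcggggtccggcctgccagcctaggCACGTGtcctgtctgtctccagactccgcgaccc

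**Figure D3:**
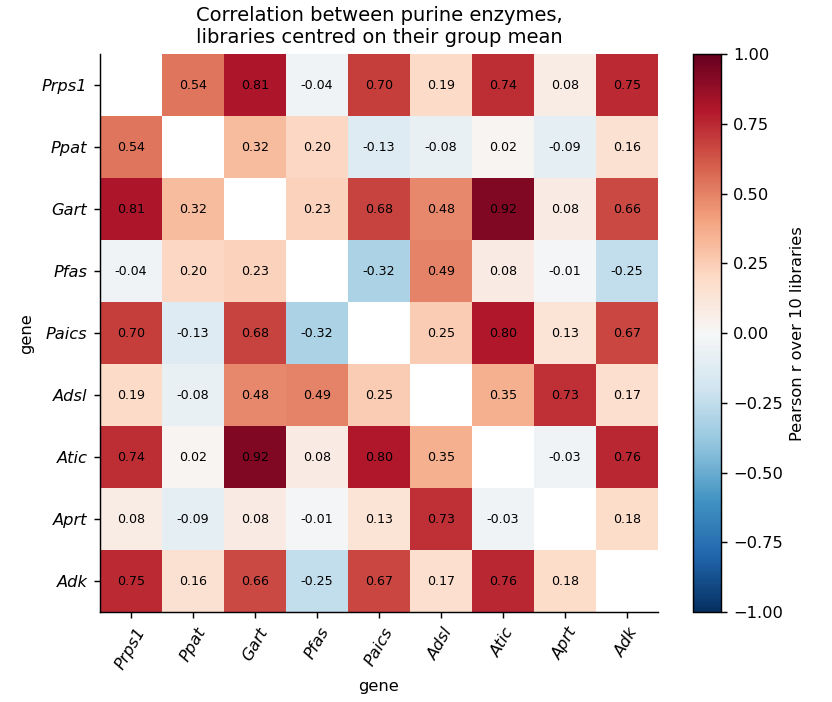
Pearson r between 9 purine enzymes (both axes; Hprt1 left out) over 10 libraries, each centred on its group mean on the log2(FPKM + 0.5) scale; colour and printed value give r. Gart and Atic reach 0.92, and Ppat and Paics, which start head to head, stand at -0.13.

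The genes whose pattern over the 10 centred libraries was nearest to that of Aprt, among 12420 protein-coding genes, were Chmp6, Tmem9 and Atp6v0b, with r of 0.98, 0.97 and 0.97. For Ppat they were Cdkn1c, Cdip1 and Tcaim, with r of 0.93, 0.91 and 0.91. For Paics they were Dnaja2, Nt5dc1 and Dhx15, with r of 0.97, 0.95 and 0.94. Picked as the highest of so many genes, these values are a description.

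The steps around the 10 enzymes were described by 7 lists with 85 tested genes, of which 0 passed the test. At an unadjusted p under 0.05 there were 10 of the 85 (11.8%, 2 higher and 8 lower), beside 9.49% of all genes tested, and the median log2 difference was -0.054. That count of 10 was 20 after rescaling to summed reads in genes (beside 1574 of all 14508) and 16 without vehicle library 5 (beside 1506). It was 6 without oxonic acid library 2 (beside 1013) or without vehicle library 2 (beside 1129). In the PRPP supply list, 0 of 8 tested members had an unadjusted p under 0.05. Rpe and Rpia, which interconvert pentose phosphates, and Prps2 differed by -0.12, -0.15 and 0.094 on the log2 scale (limma adjusted p = 0.561, 0.632 and 0.802). In the list from IMP to AMP and GMP, 0 of 9 did, and Impdh1, which commits IMP to guanine nucleotides, averaged 4.13 ± 0.600 FPKM in oxonic acid libraries, against 4.91 ± 0.546 FPKM in vehicle libraries (SD, n = 5 each; limma adjusted p = 0.530). Impdh2 and Gmpr2 had log2 differences of -0.11 and 0.067.

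Kinases and nucleotidases that handle the finished nucleotides gave a few small p-values that did not pass. Beside 9.49% of all genes tested, 1 of 12 purine nucleotide kinases had an unadjusted p under 0.05. This was Ak6, at 6.07 ± 0.287 FPKM in oxonic acid libraries, against 7.15 ± 0.805 FPKM in vehicle libraries (SD, n = 5 each; limma adjusted p = 0.447), and its groups did not overlap. Guk1 and Nme2 had log2 differences of -0.15 and -0.12. Among genes of nucleoside salvage and deamination, 2 of 16 did. The nucleotidase Nt5c averaged 5.65 ± 0.969 FPKM in oxonic acid libraries, against 7.19 ± 0.436 FPKM in vehicle libraries, and Nt5e, which makes adenosine outside the cell, averaged 33.8 ± 2.70 FPKM in oxonic acid libraries, against 29.5 ± 3.71 FPKM in vehicle libraries (SD, n = 5 each; limma adjusted p = 0.396 and 0.520). Nt5c3a had a log2 difference of -0.11.

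In the list of breakdown to urate and allantoin, 0 of 4 tested members had an unadjusted p under 0.05. Urad, Gda and Xdh, which makes uric acid, differed by 0.32, -0.22 and -0.16 on the log2 scale (limma adjusted p = 0.599, 0.629 and 0.689). Uox, the uricase that oxonic acid inhibits, was listed at 0 FPKM in all 10 libraries.

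Among genes of folate carbon and glycine supply, 2 of 22 had an unadjusted p under 0.05, beside 9.49% of all genes tested. The mitochondrial folate enzyme Mthfd2 averaged 1.71 ± 0.540 FPKM in oxonic acid libraries, against 2.50 ± 0.434 FPKM in vehicle libraries (SD, n = 5 each; limma adjusted p = 0.485). Aldh1l1, not 1 of those 2, had a log2 difference of 0.17 (limma unadjusted p = 0.063).

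Pyrimidine and deoxynucleotide genes had 5 of 14 at an unadjusted p under 0.05, 1 higher and 4 lower, and 0 passed. Of all genes tested, 4.32% were higher and 5.17% lower at that p. Ctps1, which makes CTP, averaged 5.38 ± 0.552 FPKM in oxonic acid libraries, against 7.14 ± 0.742 FPKM in vehicle libraries (SD, n = 5 each; limma adjusted p = 0.333), without overlap of the groups. The ribonucleotide reductase subunits differed in sign, with log2 differences of -0.79 for Rrm2, the subunit of dividing cells, and 0.30 for Rrm2b, the subunit known from non-dividing cells (limma adjusted p = 0.333 and 0.396). Cell proliferation genes had 12 of 19 at an unadjusted p under 0.05, all lower, beside 5.17% of all genes tested lower at that p. Their median log2 difference was -0.31, beside 0.0088 for the 10 purine enzymes, and 0 of the 19 passed. Pcna averaged 44.8 ± 2.28 FPKM in oxonic acid libraries, against 51.0 ± 2.19 FPKM in vehicle libraries (SD, n = 5 each; limma adjusted p = 0.335), and Mcm6 and Cdc20 had log2 differences of -0.42 and -0.46. The difference between these lists was not tested, and the lists were chosen with earlier results of these data known.

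**Figure D4:**
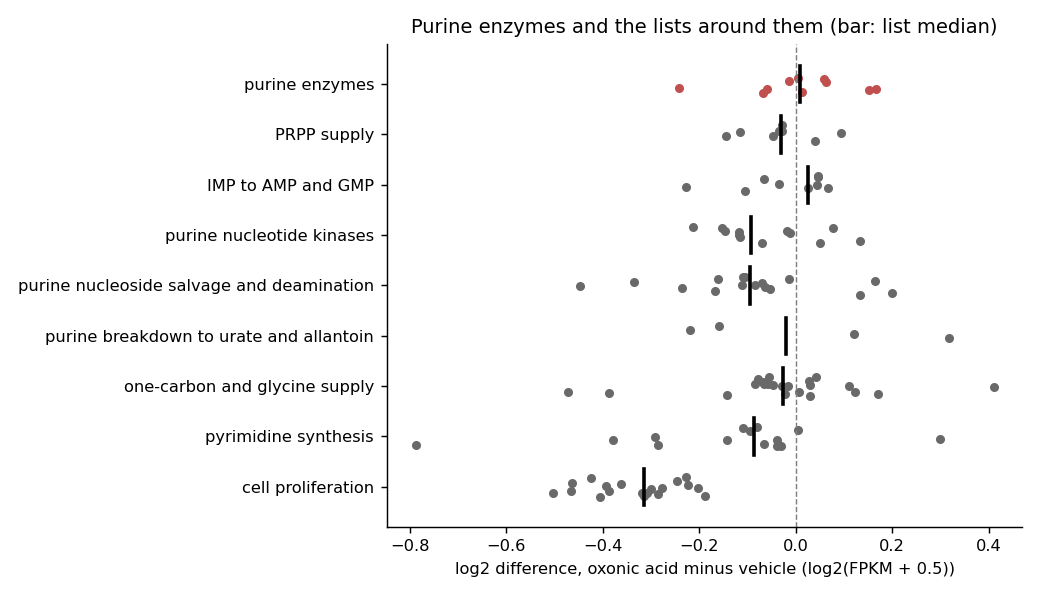
Log2 difference, oxonic acid minus vehicle, on log2(FPKM + 0.5) (horizontal axis) for each tested gene of the 10 purine enzymes (top row) and of 8 lists around them; points are genes and vertical bars are list medians. The purine enzymes centre on 0.0088 and the cell proliferation genes on -0.31, with none of these genes past the threshold.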

How the data were processed

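Poly-A RNA was sequenced, per the labels' protocols, which do not settle whether libraries kept strand. The submitters' processing notes name featureCounts 1.5.0-p3, StringTie 1.3.3b, HISAT2 2.0.5 and fastp. Genome build, annotation and the handling of multi-mapped reads are not stated in the sources used here. The authors deposited FPKM per gene and library. FPKM times gene length gave whole reads (100% within 0.01 of a whole number), and the authors' library size was 0.977 to 1.04 times the summed reads, so their scaling was kept.

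Table columns carry the library names of the sample descriptions, which tied them to groups. A repeated symbol took the row with the highest mean. Genes with a mean of at least 0.5 FPKM were tested on log2(FPKM + 0.5) with limma 3.58.1 in R 4.3.3 (trend, two-sided, Benjamini-Hochberg, threshold 0.05); the pseudocount understates changes of low genes. Permutations and figures used Python 3.11.15, scipy 1.17.1 and matplotlib 3.10.9. The fit was tested on simulated data. No 2 libraries agreed within sampling noise (lowest chi-square per degree of freedom 4.84). All 10 enzymes are named, and of each list around them the up to 3 genes with the smallest unadjusted p. A further list gene that this rule names is not reported here. Genes and lists were chosen with earlier results of these data known. Of the list symbols, those matched to the table by exact name were used. Same-numbered libraries did not deviate together, so numbers were not treated as pairs.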

Additional observations from a re-analysis of the deposited data

Results flagged for a closer look

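In 20 groups of 5 libraries (10 genes in each diet), 4 had a library far from the others by Dixon's criterion, where chance gives about 1 in 20 groups. Hprt1 measured 18.5 FPKM in oxonic acid library 1, beside 1.68 FPKM for the next library of that group. Hprt1 measured 19.96 FPKM in vehicle library 1, beside 0.754 FPKM for the next. Paics measured 20.7 FPKM in oxonic acid library 4, beside 13.9 FPKM for the next. Atic measured 16.8 FPKM in that same library, beside 13.7 FPKM for the next.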

How the results depend on the processing

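Over 22 other settings, the count of purine enzymes called stayed at 0 of 10, with Aprt at an unadjusted p under 0.05 in each. The median log2 difference of the 10 ran from -0.032 to 0.036 without single libraries and from -0.024 to 0.048 otherwise. Over all genes, 1 gene, Tap2, was called with limma's library weights, and without single libraries the count was 0 to 1, the 1 being SNORA3 without vehicle library 1; the cause was not tested. Aprt, Gart, Pfas and Paics kept their sign in every setting, at -0.28 to -0.19, 0.030 to 0.12, 0.017 to 0.10 and 0.020 to 0.33, with Paics highest under the block of runs. Under that block the difference rests on runs B and C, each with 1 oxonic acid library, because run A had 0 vehicle libraries. Within runs B and C Paics differed by 0.68 and -0.072, while Aprt, Gart and Pfas kept their sign in both. At an unadjusted p under 0.05, the 85 genes of the lists around the enzymes gave 6 to 20, while all genes tested gave 971 to 1670. Rescaled to summed reads in genes, Adk turned to -0.029 and Ppat to -0.020, and outside the mitochondrial genome Adk to -0.0069. With library weights Hprt1 turned to -0.25 and Adk to -0.012. With runs A, B and C of sample numbers as a block, Hprt1 turned to -0.69, Ppat to -0.086, Adsl to 0.0057, Atic to 0.11 and Prps1 to 0.028. Without both libraries 1, a setting added after seeing the data, Atic turned to 0.026. Without single libraries Hprt1 ran from -0.65 to 1.05, Adk from -0.030 to 0.037, Ppat from -0.039 to 0.049, Atic from -0.13 to 0.00098 and Prps1 from -0.055 to 0.023. The replicate number as a block gave 0 called genes and left Aprt at -0.24 (limma adjusted p = 0.347). Deviations of same-numbered libraries correlated at -0.013 to 0.20 over genes, and 1 of 5 oxonic acid libraries correlated best with its own number.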
